A study of Mus musculus with 47 samples.

Results

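Small nucleolar RNA (snoRNA) host genes are transcribed genes that carry snoRNAs within their introns. The 9 host genes described here, Snhg1, Snhg3, Snhg5, Snhg6, Snhg8, Snhg9, Snhg12, Gas5 and Zfas1, were taken as a list of symbols. All 9 were present in each of the 5 deposited tables of RPKM, which list 24507 genes for unsorted cells and embryoid bodies and 26182 for sorted cells. RPKM are reads per kilobase of gene length, here scaled by a size factor set for each library within its table. The members were selected on their RPKM in these same tables, read library by library and paired by replicate number, so the levels and differences of its members below are descriptions and support no test. The cells were E14Tg2A, a mouse embryonic stem cell (ESC) line, given either a control siRNA (siC) or one that targets Tdg (siTdg), a gene whose product is the DNA repair enzyme thymine DNA glycosylase. The labels give for all groups a serum-free N2B27 medium for ESCs with the MEK inhibitor PD0325901, the GSK3 inhibitor CHIR99021 and leukemia inhibitory factor. Total RNA depleted of ribosomal RNA was sequenced from 10 groups of 2 libraries: siC and siTdg ESCs at 48 h, the same at 96 h, embryoid bodies (EBs) at day 11 grown from siC or siTdg cells, siC ESCs in G1 and in G2M, and siTdg ESCs in G1 and in G2M. How EBs were cultured, when after transfection cells were sorted, and how phases were separated, are points not given in the sources used here. The libraries of a group are numbered 1 and 2 in their labels, which do not say what a number marks or whether the libraries came from separate cultures, so the spread given below may be technical.

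In these genes the introns are spliced out and trimmed to snoRNAs of the C/D box type, which guide 2'-O-methylation of ribosomal RNA, or of the H/ACA box type, which guide pseudouridylation. The spliced exons form a long noncoding RNA that in many host genes is short-lived, since ribosomes read its short open reading frames and nonsense-mediated decay removes it. Several host RNAs, Gas5 among them, begin with a run of pyrimidines and belong to the 5'-terminal oligopyrimidine class, whose translation and decay follow growth conditions. Gas5 was first described as an RNA that accumulates in growth-arrested cells.

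The RefSeq annotation placed snoRNA genes inside all 9 members. There were 8 in Snhg1 (Snord22 is the one with a standard symbol), 8 in Gas5 (Snord47 among them), 4 in Snhg12 (Snora16a, Snora44, Snora61 and Snord99), 3 in Zfas1 (Snord12 among them), 2 in Snhg3 (Snora73a and Snora73b), 2 in Snhg5, and 1 each in Snhg6 (Snord87), Snhg8 (Snora24) and Snhg9 (Snora78). In the same annotation Snhg9 lies wholly within the span of Rps2, a ribosomal protein gene, Zfas1 overlaps Znfx1, Gas5 overlaps Zbtb37, and Snhg6 overlaps Mcmdc2. The libraries were made with a stranded kit, but whether counting used the strand is not given in the sources used here, so reads of these overlapping pairs may have been shared.

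Promoters are shown because 8 of the 9 RNAs differed together between libraries. The RefSeq promoter table (GRCm38.p6) held 9 entries for 8 members, with a pair of starts for Gas5 and no entry for Snhg6. The lines below hold 60 bases before the annotated start and 50 from it, the first transcribed base being position 1, with the 6 bases of a TATA-type motif in capitals.
Snhg1, chr19:8723427-8723536, + strand: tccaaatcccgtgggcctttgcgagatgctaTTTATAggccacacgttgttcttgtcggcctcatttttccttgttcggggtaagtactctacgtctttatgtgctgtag
Snhg12, chr4:132308618-132308727, + strand: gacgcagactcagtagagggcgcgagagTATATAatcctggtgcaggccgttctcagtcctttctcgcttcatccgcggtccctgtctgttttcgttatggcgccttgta
Gas5, downstream start, chr1:161035106-161035215, + strand: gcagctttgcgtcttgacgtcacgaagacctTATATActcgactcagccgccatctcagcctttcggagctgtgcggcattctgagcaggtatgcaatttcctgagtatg
Snhg8, chr3:123508287-123508396, - strand: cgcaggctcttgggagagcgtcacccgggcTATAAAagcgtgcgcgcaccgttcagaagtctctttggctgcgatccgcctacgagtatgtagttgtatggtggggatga
Zfas1, chr2:167062874-167062983, + strand: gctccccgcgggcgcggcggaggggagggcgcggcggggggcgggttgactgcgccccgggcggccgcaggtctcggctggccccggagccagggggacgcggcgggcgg
The motifs searched were TATAAA on either strand, which reads TTTATA on the opposite one, and TATATA, which reads the same on both. They were picked after the sequences had been read, so the share below is a description and supports no test. Any part of promoters in the differences between libraries was not tested. One of them was present in these 110 bases in 7 of the 9 entries, against 6.75% of all 32851 promoters in the table. The first base of the motif was at position -29 in Snhg1 (on the opposite strand) and in Gas5, -30 in Snhg8, -32 in Snhg12 and -23 in Snhg5. In Snhg3 and Snhg9 it lay downstream of the annotated start, at 23 and 35. Zfas1, whose window is 87.3% G or C, held neither sequence, and nor did the other Gas5 entry.

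Reads assigned to genes ranged from 20818174 to 41433232 per library. Tdg itself was at 46.0 and 43.4 RPKM with siC and at 7.34 and 13.2 RPKM with siTdg at 48 h, but at 35.8 and 46.0 RPKM against 28.2 and 40.3 RPKM at 96 h, and at 35.1 and 38.5 RPKM against 37.3 and 43.7 RPKM in EBs. In sorted cells it was at 54.8 to 63.1 RPKM with siC and at 7.53 to 12.3 RPKM with siTdg. The label siTdg therefore went with lower Tdg mRNA at 48 h and in sorted cells, and with overlapping levels at 96 h and in EBs. The 6 pluripotency markers, Pou5f1 and Nanog among them, summed to between 1776 and 2767 RPKM in ESC libraries and to between 11.6 and 24.4 RPKM in EBs. The 8 G2/M markers summed to between 1164 and 1263 RPKM in G2M and between 575 and 712 RPKM in G1.

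By the gene lengths behind the deposited values, Snhg1 had the highest RPKM of the 9 members in all 10 groups, and Snhg9 the lowest. In group means of reads scaled to a common library total, with no gene length, Gas5 was above Snhg1 in unsorted ESCs at 48 h and 96 h. With siC at 48 h these means were 68.6 for Gas5 and 52.4 for Snhg1. In the group means of EBs and sorted cells Snhg1 was above Gas5 on that scale. Single libraries did not all keep to these orders. Gas5 was above Snhg1 in siC EB number 1 (96.9 against 85.4), siC G1 number 2 (57.8 against 53.7) and siC G2M number 2 (41.2 against 39.0). Snhg1 was above Gas5 in siTdg number 2 at 96 h (146 against 140). All other libraries had the order of their group means. Per unit of length Snhg1 made up between 30.5% and 46.3% of the members' summed RPKM in a library. In ESCs at 48 h and 96 h the next levels were those of Snhg5, which carries C/D box snoRNAs, and of Zfas1, a host RNA antisense to the start of Znfx1. In EBs Zfas1 came after Snhg1, followed by Snhg6. The libraries of a group were far apart, so that neighbours in this order did not differ beyond their spread. At 48 h with siC, for example, Snhg5 was at 40.4 ± 27.0 RPKM and Zfas1 at 31.2 ± 23.1 RPKM (SD, n = 2). Gas5 can be ranked, and shares of the summed RPKM compared, only within a kind of table. The gene length behind Gas5 RPKM was 2554 bases for unsorted cells and EBs and 620 bases for sorted cells. The other 8 members had the same length in all tables, from 183 bases for Snhg9 to 1010 bases for Snhg5.

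For most of these genes the numbered libraries of a group were further apart than siRNAs or phases. Snhg9 at 48 h was an exception, and Snhg3 in siTdg sorted cells differed about as much between phases as between numbers. Snhg1, the host of the C/D box snoRNA Snord22 and its neighbours, was at 51.1 RPKM in siC number 1 and 168 RPKM in siC number 2 at 48 h, and at 58.2 and 172 RPKM with siTdg. At 96 h it was at 158 and 269 RPKM with siC and at 156 and 318 RPKM with siTdg. In EBs it was at 146 and 909 RPKM with siC and at 150 and 742 RPKM with siTdg. Library 2 was the higher one in each of these 6 groups, and siC and siTdg of the same number lay close together. In sorted cells number 1 was the higher one instead. Snhg1 was at 219 and 110 RPKM in siC G1, at 220 and 83.7 RPKM in siC G2M, at 222 and 152 RPKM in siTdg G1 and at 219 and 130 RPKM in siTdg G2M.

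**Figure D1:**
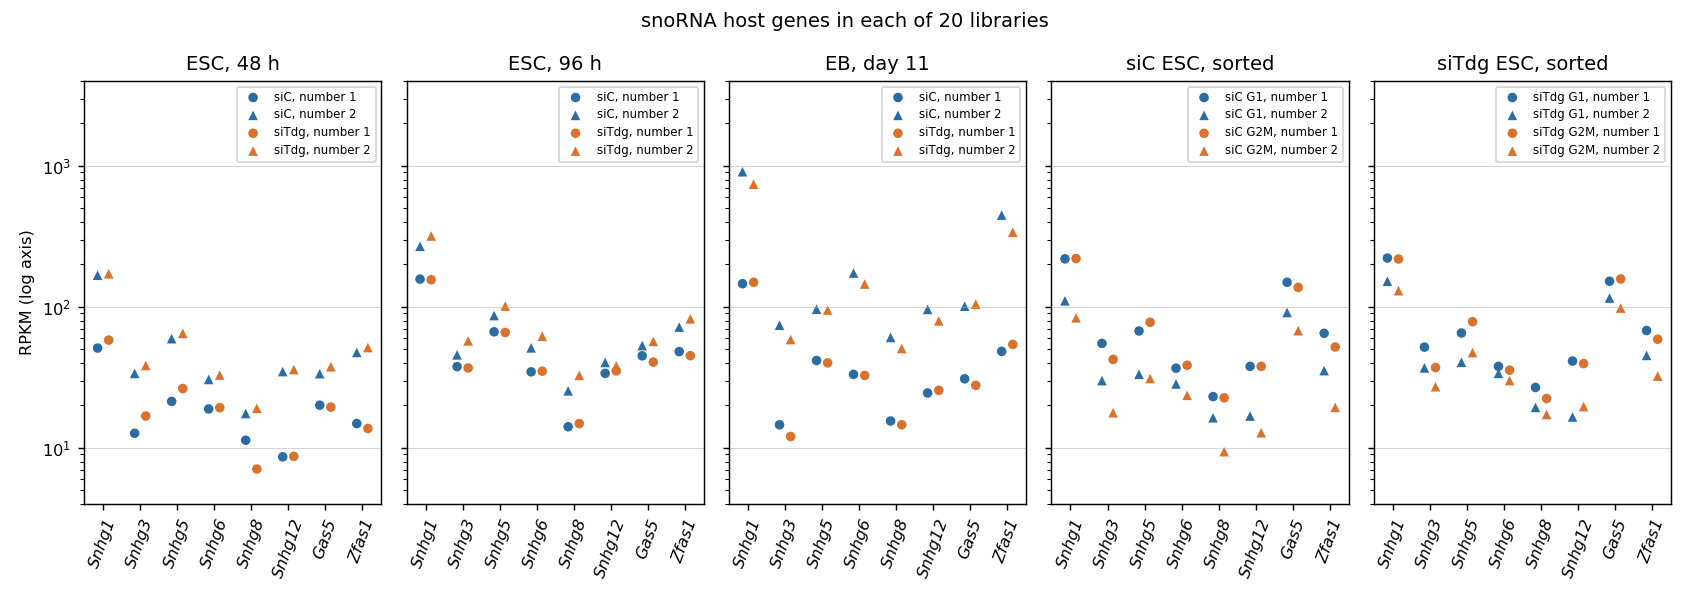
RPKM (log axis) of 8 snoRNA host genes in each of the 20 libraries, by deposited table; colours mark the groups, circles library number 1 and triangles number 2. Triangles lie above circles in unsorted ESCs and EBs (Snhg1 at 909 against 146 RPKM in siC EBs) and below them in sorted cells. Snhg9 is left out of this plot, and Gas5 values of the sorted tables use another gene length.

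Zfas1, the host of Snord12, showed the same order with a wider range. At 48 h it was at 14.9 and 47.5 RPKM with siC and at 13.7 and 51.5 RPKM with siTdg. In EBs it was at 48.4 and 448 RPKM with siC and at 54.2 and 339 RPKM with siTdg, a ratio of number 2 to number 1 of 9.25 and 6.25. Within each of these 4 groups the libraries were further apart than the means of siC and siTdg. Snhg12, which carries 3 H/ACA box snoRNAs and Snord99, was at 8.65 and 34.8 RPKM with siC and at 8.71 and 35.9 RPKM with siTdg at 48 h. At 96 h the same gene was at 33.8 and 40.4 RPKM with siC and at 35.2 and 38.1 RPKM with siTdg, the narrowest ratio between numbers among the members there with siTdg, at 1.08. Gas5 is given in RPM (reads scaled to a common library total, with no gene length) because of its unequal lengths. It was at 49.8 and 87.3 with siC at 48 h, at 96.9 and 221 with siC in EBs, and at 95.8 and 57.8 in siC G1. Its reads may have been counted over different parts of the gene in sorted cells. RPM therefore do not make its sorted values comparable with the others.

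Over the 8 members other than Snhg9, number 2 was above number 1 for 8 of 8 in each of the 6 groups of unsorted ESCs and EBs, and for 0 of 8 in each of the 4 sorted groups. The ratio of number 2 to number 1 ranged from 1.55 to 4.02 in siC at 48 h and from 1.70 to 4.13 in siTdg at 48 h. It was narrower at 96 h, from 1.18 to 1.80 with siC and from 1.08 to 2.20 with siTdg, and widest in EBs, from 2.31 to 9.25 with siC and from 2.37 to 6.25 with siTdg. In sorted cells the ratio of number 1 to number 2 ranged from 1.29 to 2.25 in siC G1, 1.64 to 2.96 in siC G2M, 1.12 to 2.49 in siTdg G1 and 1.19 to 2.02 in siTdg G2M. On the log2(RPKM + 0.5) scale used for all differences below, 5 of these 8 members were at least 2-fold higher in number 2 of siC at 48 h, where 2.75% of 12217 genes (mean RPKM 0.5 or more) were. With siTdg 6 of 8 were, against 2.63% of genes. At 96 h 0 of 8 were with siC (3.91% of genes) and 2 of 8 with siTdg (6.65%). In number 2 of EBs all 8 were at least 2-fold higher, against 19.7% of 13300 genes with siC and 21% with siTdg. These EB ratios depend on the scaling. The size factors with siC were 1.63 for 38825128 reads and 0.639 for 21775039 reads, and in RPM these libraries were closer. There Zfas1 was at 43.8 and 283 RPM, and Snhg5, at 51.7 and 83.3 RPM, was less than 2-fold apart. In siC G2M 7 of 8 were at least 2-fold lower in number 2, against 1.04% of 12382 genes, and in siC G1 2 of 8 were, against 0.654%. With siTdg 1 of 8 was in G1 (0.926% of genes) and 0 of 8 in G2M (0.574%). These shares describe the choice of members as much as the cells.

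**Figure D2:**
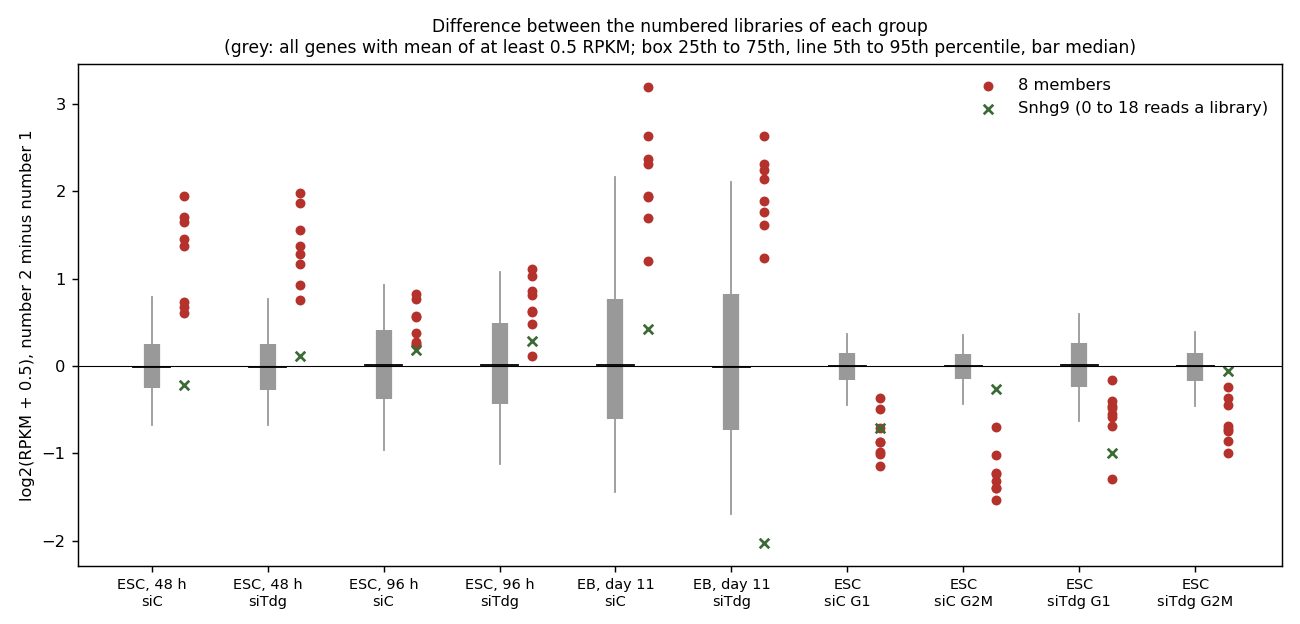
Difference between library 2 and library 1 of each group, on the log2(RPKM + 0.5) scale, for 8 members (red points), Snhg9 (green crosses) and all genes of mean RPKM 0.5 or more (grey boxes from the 25th to the 75th percentile, lines from the 5th to the 95th, bars at the median). The 8 members lie above 0 in the 6 groups on the left and below 0 in the 4 sorted groups, while the medians of all genes stay near 0.

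Other features of the libraries moved with these differences, and their part was not tested. Among genes of mean RPKM 5 or more, those shorter than 1000 bases had a median difference of 1.88 between number 2 and number 1 in siC EBs and of 0.61 in siC at 96 h, against -0.42 and -0.27 for genes of 3000 bases or more. The medians of the 8 members were 2.13 in siC EBs and 0.47 in siC at 96 h, near those of the short genes. In siC at 48 h the short genes were at 0.08 and in siC G2M at 0.12, where the medians of the 8 members were 1.42 and -1.27. The 6 fibroblast markers, collagens and Dcn among them, summed to 4305 and 5675 RPKM in the EB libraries numbered 1 and to 940 and 820 RPKM in those numbered 2. In ESC libraries they summed to between 0.813 and 4.27 RPKM. The highest sums were in number 2 at 48 h, at 3.97 RPKM with siC and 4.27 RPKM with siTdg, against 0.901 and 0.911 RPKM in number 1. In the other ESC libraries the sums were between 0.813 and 1.88 RPKM. The 14 markers of EB lineages summed to 233 and 323 RPKM in the EB libraries numbered 1 and to 450 and 867 RPKM in those numbered 2, although most of them were lower in number 2 (3 of 12 measured were higher with siC, median -0.76, and 4 of 12 with siTdg, median -0.77). In these bulk samples fewer cells of a type and less RNA per cell cannot be told apart.

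Rows for the snoRNAs themselves gave a second reading of the same genes, although the kit does not select for RNAs of this size and reads of unspliced hosts can fall in these rows. Of 32 hosted snoRNAs listed, 10 had a row in the tables. Snord22, in Snhg1, was at 3.80 and 27.8 RPKM in siC at 48 h, at 5.31 and 35.2 RPKM in siTdg at 48 h, and at 89.7 and 25.2 RPKM in siC G1. Snord12, in Zfas1, was at 6.40 and 26.8 RPKM in siC at 48 h and at 67.3 and 25.2 RPKM in siC G1. As in their hosts, number 2 was higher at 48 h and number 1 in sorted G1. At 96 h the snoRNAs did not follow this order, with 4 of 9 higher in number 2 under either siRNA (medians -0.01 with siC and -0.24 with siTdg), where 9 of 9 members were higher (0.38 and 0.63). In EBs 8 of 9 snoRNAs were higher in number 2 under either siRNA, with medians of 0.39 with siC and 0.77 with siTdg. The medians of the 9 members there were 1.95 and 1.89. At 48 h 9 of 9 snoRNAs of mean RPKM 0.5 or more were at least 2-fold higher in number 2 of siC, on 0 to 99 reads in a library (the highest for Snord22), against 2.75% of all genes. In siC G1 8 of 9 were at least 2-fold lower in number 2, against 0.654% of all genes. Snora24, in Snhg8, was listed at 0 in all 20 libraries.

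Over the 20 libraries, each value less the mean of its deposited table, the correlation of a snoRNA with its host was 0.93 for Snora61 and 0.91 for Snord99 (both in Snhg12), 0.89 for Snord12 and 0.88 for Snord22. It was lower for Snord47 with Gas5 (0.58) and Snord87 with Snhg6 (0.34), and -0.10 for Snora78 with Snhg9. Points in these correlations share their libraries and, within a number, their deviations. Measured in the same way, the 8 members correlated with the mean of the other 7 at between 0.92 (Snhg5) and 0.99 (Snhg1).

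The 6 other genes whose profile was most like the mean of the 8 members, among 6058 of mean RPKM 5 or more in each table, were Snhg15 (r = 0.97, n = 20 libraries), Alkbh1 (0.972), Pank4 (0.970), Epb41l4aos (0.965), Srsf6 (0.963) and 2410006H16Rik (0.962). The median over all 6058 was 0.21. Snhg15 is another noncoding snoRNA host, and the 6 such hosts outside the members that were abundant enough had a median of 0.92. The 32 protein-coding snoRNA hosts, most of them ribosomal protein and ribosome biogenesis genes, had a median of 0.67 with a range from -0.83 to 0.96. For 8 factors of nonsense-mediated decay, the Upf and Smg proteins and their partners, the median was -0.36.

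The noncoding hosts parted from the protein-coding ones at 48 h and in sorted cells. In siC at 48 h the median difference of number 2 from number 1 was 1.38 for the 9 members and 1.02 for 10 other noncoding hosts, but -0.03 for 32 protein-coding hosts, with -0.01 for all genes. In siC G1 the medians were -0.87, -0.58 and 0.14. In siC EBs the protein-coding hosts differed in the same direction as the members, with medians of 1.63 and 1.95. The difference between the lists was not tested.

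Against this spread, siC and siTdg could not be separated for the 8 abundant members at 48 h. With siTdg minus siC fitted by limma, the log2 differences ranged from -0.26 ± 0.58 (SE) for Snhg8 to 0.29 ± 0.55 for Snhg3, and that of Snhg1 was 0.11 ± 0.74. No member was called at an adjusted p under 0.05 (Benjamini-Hochberg over 12190 genes), and the fit called 0% of all genes, with 54 at an unadjusted p under 0.05. Tdg itself was not called by this fit (-2.12 ± 0.31, SE), so the lack of a call cannot tell an unchanged member from a changed one. The authors' deposited table did call Tdg (-2.18 ± 0.43, SE, adjusted p = 0.00018). Limma-voom on reads also called 0 genes (68 unadjusted). Within a number the difference of 7 of these 8 members was smaller than its error, and Snhg8 differed by -0.64 within number 1 and 0.12 within number 2. Snhg12 differed by 0.01 within number 1 and by 0.05 within number 2, and Snhg1 by 0.19 and 0.04. In the authors' deposited table, where 1.35% of 8393 genes had an adjusted p under 0.05, none of the 5 members with an adjusted p had one, and Snhg5 came to 0.21 ± 0.13 (SE, adjusted p = 0.63).

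At 96 h the median log2 difference of the members was 0.10, against 0.00 for all genes. The median turned negative without siTdg number 2 (-0.26) or siC number 1 (-0.14). Leaving out 1 library unbalances the numbers, so such a median also carries the difference between numbers. The limma fit called 0% of 12190 genes (11 at an unadjusted p under 0.05). With limma-voom 0 were called (23 unadjusted). All 9 members overlapped between siRNAs, where 9.02% of genes did not. Snhg3, host of a pair of H/ACA box snoRNAs, was at 37.7 and 45.7 RPKM with siC and at 36.9 and 57.4 RPKM with siTdg. Within number 1 the 9 members differed by between -0.16 and 0.07, and within number 2 8 of 9 had values between -0.08 and 0.33, with 0.36 for Snhg8. In the authors' deposited table, where 0.144% of 6246 genes had an adjusted p under 0.05, no member did.

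In EBs the fit gave a negative difference for 9 of 9 members, with a median of -0.13 against 0.02 for all genes, and limma called 0% of 13300 genes (20 at an unadjusted p under 0.05), as did limma-voom (5 unadjusted). The difference was also negative for 11 of 11 other noncoding hosts (median -0.29), and positive for 23 of 32 protein-coding hosts (0.10). For the 8 members other than Snhg9 the standard errors, from 0.74 for Snhg5 to 1.52 for Zfas1, were larger than the differences. The median of the members turned positive (0.82) without siTdg number 1 and (0.85) without siC number 2, which again unbalances the numbers. Within number 1 Zfas1 was 0.16 higher with siTdg and within number 2 it was 0.40 lower, and Snhg1 likewise changed sign, from 0.03 to -0.29. Snhg3 was lower in both, by 0.27 and 0.34, with 14.6 and 74.1 RPKM with siC and 12.0 and 58.7 RPKM with siTdg. The authors' deposited table gave Snhg3 a difference of -0.31 ± 0.23 (SE) and called 0.0745% of 13424 genes, none of them a member.

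**Figure D3:**
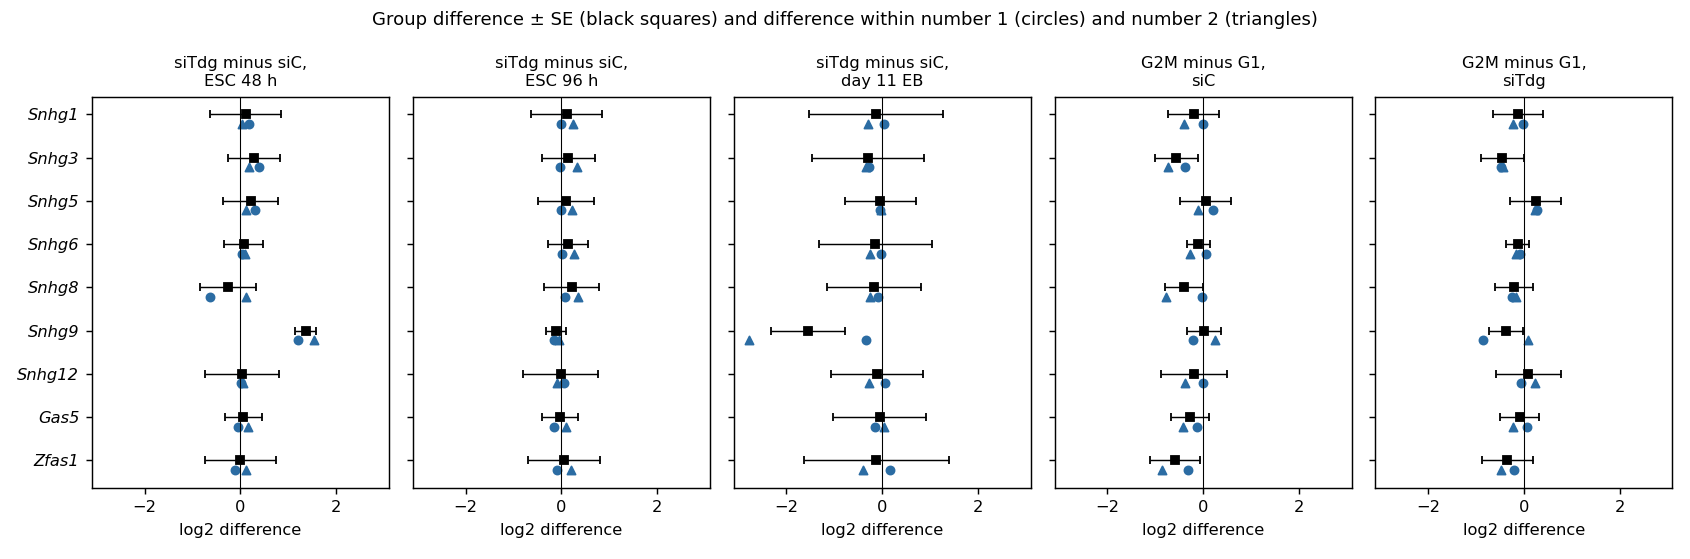
Log2 difference of each member between groups in 5 comparisons; black squares with bars give the fitted group difference ± SE (n = 2 against 2), blue circles the difference within library number 1 and blue triangles that within number 2. Snhg9 lies away from 0 at 48 h (1.36) and in EBs (-1.56); for most other members the bars are wider than the spread of the circles and triangles.

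Snhg9 stood apart from the other members by its level and its differences. It holds Snora78, lies within Rps2, and had between 0 and 18 reads in a library. At 48 h there were 2 and 1 reads with siC and 7 and 8 reads with siTdg, so the groups did not overlap, as was the case for 18.8% of 12190 genes. Scaled by size factors, the ratio of siTdg to siC was 5.54, with a 95% counting interval of 1.57 to 29.9 that leaves out any spread between cultures. At 96 h there were 6 and 7 reads with siC and 5 and 7 with siTdg, a ratio of 0.91 (0.38 to 2.16). In sorted cells, where Tdg mRNA was also lower with siTdg, there were 5 and 2 reads in siC G1 and 7 and 2 in siTdg G1. In G2M there were 3 and 2 reads with siC and 3 and 3 with siTdg. In RPM the siRNA groups overlapped in each phase. In EBs there were 18 and 10 reads with siC and 13 and 0 with siTdg, a ratio of 0.48 (0.23 to 0.95). For the library with no read the upper limit of counting error was set to 3 reads. In RPKM, which is scaled by the size factors of these libraries, the groups did not overlap in EBs either, with siTdg lower, as was the case for 9.29% of 13300 genes. The fit gave 1.36 ± 0.21 at 48 h and -1.56 ± 0.77 in EBs on the log2(RPKM + 0.5) scale, and the authors' deposited table gave 2.51 ± 1.78 and -2.20 ± 1.48 (SE) with no adjusted p.

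**Figure D4:**
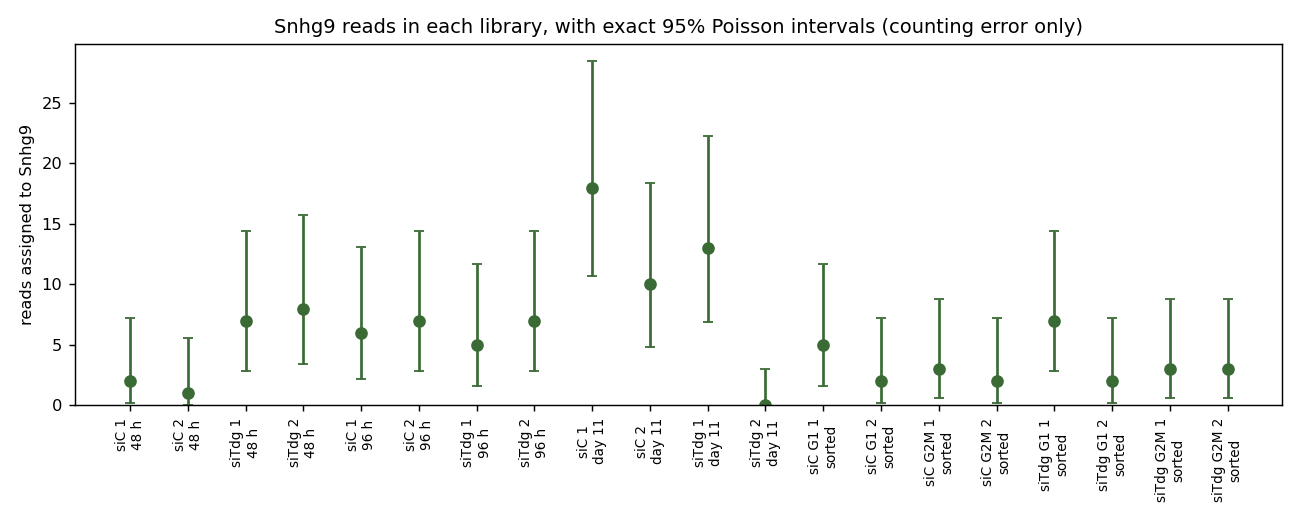
Reads assigned to Snhg9 in each of the 20 libraries, as points, with exact 95% Poisson intervals that cover counting error only. For the library with 0 reads the upper limit was set to 3 reads and is not the exact one. At 48 h the siC libraries hold 2 and 1 reads and the siTdg libraries 7 and 8, and 1 siTdg EB library holds 0.

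In sorted cells the question was whether host RNAs differ between G1 and G2M. Snhg3 was at 55.1 and 30.0 RPKM in siC G1 and at 42.4 and 17.7 RPKM in siC G2M, so that the phases overlapped across numbers while G2M was lower within each, by 0.37 and 0.74. Zfas1 was at 65.0 and 35.3 RPKM in siC G1 and at 52.0 and 19.4 RPKM in siC G2M, lower within each number by 0.32 and 0.85. The fitted differences were -0.56 ± 0.45 (SE) for Snhg3 and -0.59 ± 0.53 for Zfas1. The limma fit called 15 of 12462 genes (0.12%), 13 of them higher in G2M, and no member. With a replicate block within each table, an alternative added after seeing the data, 8.63% of genes were called, Snhg3 and Zfas1 among them. No member had phases without overlap, in siC or in siTdg, while 41% of genes did in siC and 33.3% in siTdg. In the authors' deposited table both were lower in G2M, Snhg3 by -0.55 ± 0.18 (adjusted p = 0.025) and Zfas1 by -0.58 ± 0.15 (adjusted p = 0.0024), 2 of 8 members with an adjusted p, where 8.48% of 10828 genes were called.

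With siTdg the same genes were in the same order. Snhg3 was at 51.8 and 36.9 RPKM in G1 and at 37.1 and 27.1 RPKM in G2M, and lower within each number by 0.48 and 0.44. Zfas1 was at 68.0 and 45.3 RPKM in G1 and at 59.0 and 32.3 RPKM in G2M. The fit called 21 of 12462 genes (0.169%) and no member. The same alternative block within each table called 13.5% of genes, and Snhg3 alone of the members. The authors' deposited table called 5.02% of 11613 genes and no member (Snhg3 -0.46 ± 0.18, adjusted p = 0.15, and Zfas1 -0.34 ± 0.15, adjusted p = 0.22). That the difference passed the authors' threshold with siC and not with siTdg does not show that it differed between them, which was not tested.

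Snhg5 went the other way from Snhg3 in the remaining phase comparison. In the authors' deposited table for cells at 0 h, which compares a fraction named SG2M with G1 and called 11.6% of 12790 genes, Snhg5 was higher in SG2M by 0.45 ± 0.10 (SE, adjusted p = 0.00038), the only member of 8 called. In the same table Snhg3 was at -0.24 ± 0.19 and Zfas1 at -0.20 ± 0.11, neither called. In the libraries sorted here, Snhg5 was at 65.3 and 40.5 RPKM in siTdg G1 and at 78.5 and 47.4 RPKM in siTdg G2M, higher within each number by 0.26 and 0.23. With siC it was higher in G2M within number 1 by 0.20, and the difference within number 2 was -0.10.

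Among 10 other noncoding hosts with an adjusted p in the authors' deposited table for siC, 4 fell in G2M and none rose, against the 8.48% called over all genes. They were Snhg4 (-0.996 ± 0.18, SE), Snhg11 (-0.70 ± 0.17), Dancr (-0.84 ± 0.24) and Snhg7 (-1.12 ± 0.33). Snhg4, host of H/ACA box snoRNAs, was at 19.6 and 14.9 RPKM in siC G1 and at 11.1 and 6.56 RPKM in siC G2M, with no overlap. In siTdg 2 of 10 were called (5.02% of all genes), Snhg4 (-0.87 ± 0.19) and Snhg7 (-1.17 ± 0.33), and at 0 h 2 of 10 (11.6% of all genes), Snhg4 (-1.01 ± 0.21) and Snhg11 (-0.86 ± 0.20). The limma fit called none of the 11 tested here in either siRNA, with medians of -0.47 for siC and -0.32 for siTdg against 0.02 for all genes in each.

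Of 32 protein-coding hosts in the authors' deposited siC table, 7 were higher in G2M and 1 was lower, where 8.48% of all genes were called. The higher ones included Hspa8, a heat shock cognate protein (0.21 ± 0.06, SE), Ncl, which encodes nucleolin (0.19 ± 0.05), and Rpl21 (0.20 ± 0.06), and the lower one was Taf1d (-0.34 ± 0.09). Of 10 nonsense-mediated decay factors, Smg6 (0.29 ± 0.08) and Smg8 (0.32 ± 0.10) were higher in G2M there, and 5 of 10 were higher in SG2M at 0 h (11.6% of all genes called), with Upf1, the helicase at the centre of the pathway, at 0.33 ± 0.08. None of 18 proteins of snoRNP assembly was called in the siC table, and at 0 h 5 of 18 were higher, Nufip1, an assembly factor (0.45 ± 0.10), and Nop56, a core protein of C/D box particles (0.41 ± 0.07), among them. In siTdg the authors' table called no gene of these 3 lists. Of 10 translation factors with a 5'-terminal oligopyrimidine tract, only Eef1d was called in the siC table (0.18 ± 0.06).

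Between siRNAs within a phase, reads of the 4 sorted groups were fitted together by limma-voom, since the deposited values of siC and siTdg are scaled in separate tables. For 8 of 8 members tested (Snhg9 had too few reads) the siTdg groups were higher, with medians of 0.15 in G1 and 0.30 in G2M against -0.01 and 0.00 for all genes. This was not particular to the members. Of protein-coding hosts 29 of 32 were higher in G1 (median 0.21) and 27 of 32 in G2M (0.06). Of other noncoding hosts 7 of 11 were higher in G1 (0.04) and 10 of 11 in G2M (0.12). Both medians of the members turned negative without siTdg number 1 (-0.10 in G1 and -0.03 in G2M) and without siC number 2 (-0.26 and -0.31). With a library left out these medians also carry the difference between numbers. In RPM Snhg1 was at 108 and 53.7 in siC G1 and at 111 and 71.6 in siTdg G1, and at 103 and 39.0 in siC G2M and at 102 and 61.5 in siTdg G2M. For Snhg1 the libraries numbered 1 were alike and those numbered 2 were lower with siC, and the groups overlapped in each phase. The largest difference was that of Zfas1 in G2M, 0.43 ± 0.52 (SE). The fit called 1 of 14854 genes (0.00673%) in each phase, which was Tdg itself (-2.76 ± 0.19 in G1 and -2.62 ± 0.18 in G2M), and no member.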

How the data were processed

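Of 47 samples in the series, 20 RNA libraries were used. The submitters' processing notes name TopHat, Bowtie, DESeq2, DiffBind and the genome builds mm9 and dm3, without roles; no source used here gives the gene annotation or the counting tool. The authors deposited RPKM values in 5 tables, each for a pair of groups. The authors also deposited log2 fold changes with standard errors, p-values and adjusted p-values, and a mean signal per gene (mean normalised read counts); per the file headers these have the column names of DESeq2. The authors' tables are named as paired, and whether a pair is a replicate number is not stated. For Snhg1 at 48 h the authors' SE was 0.12, against 0.74 in the limma fit used here, which held no term for the number. The authors' signs were turned so that differences are siTdg minus siC and later phase minus G1. A further 4 RPKM columns (0 h) could be tied to no sample and stayed out. Peak positions and the authors' test score were not used here.

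Reads were recovered from RPKM through the mean normalised counts, and 100% of positive values came out whole within 0.01 reads. Each table proved to be scaled by its own size factors, so siC and siTdg within a phase were compared on recovered reads and not on RPKM as planned. No pair of libraries was within sampling noise of another by a chi-square of reads. Differences were fitted with limma 3.58.1 (R 4.3.3) after adding 0.5 to RPKM and taking log2, keeping genes of mean RPKM 0.5 or more and using the eBayes trend option. The 8 unsorted ESC libraries, the 4 EB libraries and the 8 sorted libraries were each modelled together; limma-voom with trimmed-mean scaling was used on reads. Calls are two-sided at an adjusted p under 0.05 (Benjamini-Hochberg over all genes). The scripts were tested on simulated data. Replicate numbers were not a term of the model. Intervals are exact at 95% and cover counting error only, except that the upper limit for 0 reads was set to 3 reads.

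Members, the 10 other gene lists and the motifs were chosen with earlier results of these data known. Named are all 9 members, Tdg, at most 4 genes per other list and comparison that the authors' table or limma called, and the 6 genes most like the members. Single hosted snoRNAs were picked for print with their values in view. The settings varied were pseudocounts, filters, scaling, reads, replicate blocks and leaving out libraries.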

Additional observations from a re-analysis of the deposited data

Results flagged for a closer look

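Snhg9 differed in opposite directions with siTdg in ESCs at 48 h (1.36 on the log2(RPKM + 0.5) scale, both siTdg libraries above both siC libraries) and in day 11 EBs (-1.56, both siTdg libraries below both siC libraries in RPKM). In sorted G1 and G2M cells, where Tdg mRNA was also lower with siTdg, the siRNA groups overlapped for this gene in RPM. The difference between ESCs and EBs was not tested, and the libraries held 0 to 18 reads of this gene. No group had the 4 libraries needed to look for a single library far from the others.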

How the results depend on the processing

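The replicate number as a block: over genes, deviations of same-numbered libraries correlated at 0.85 at 48 h, 0.93 at 96 h, 0.95 in EBs, 0.66 for siC phases and 0.72 for siTdg phases. With 2 numbers per comparison and no statement of what they mark, they were not treated as pairs. The block raised the genes called to 150 in EBs (1.13% of those tested), 614 in siC phases (4.93%) and 985 in siTdg phases (7.9%). Alternatives added after seeing the data were a block within each table, with 280 genes called at 48 h (2.3%), 15 at 96 h, 14 for the difference between these times (0.115%), 1076 in siC phases (8.63%) and 1686 in siTdg phases (13.5%), and the same block on recovered reads with limma-voom, with 931 (6.27%) and 1490 (10%) in siC and siTdg phases but 0 at 48 h, at 96 h, for the difference between times and in EBs (2007, 1416, 1088 and 1290 at an unadjusted p under 0.05). With the block Snhg9 was called in EBs (adjusted p = 0.0017, limma), and with the block within each table at 48 h (adjusted p = 0.00055) and for the difference between 96 h and 48 h (-1.47, adjusted p = 0.022); on reads it was too low to test in ESCs and was not called in EBs. The block within each table also called Snhg3 (adjusted p = 0.013) and Zfas1 (0.030) in siC phases and Snhg3 (0.017) in siTdg phases, and the block on reads called the same genes (0.023, 0.031 and 0.032, limma-voom). Members were selected on these same values, so their adjusted p-values are descriptions, and those of Snhg9 rest on few reads.

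With no filter 4 genes were called at 96 h and 4 for the difference between times. With only the libraries compared 3 were called in siC phases and 0 in siTdg phases, where fewer libraries estimate the spread. Leaving out each library in turn, with the lone sample assumed to vary like the others, gave 0 to 1 genes called in EBs, 0 in siC phases, 0 to 8 in siTdg phases and 0 to 1 between siRNAs in G1 and in G2M. The median difference of the members changed sign in each of the 8 comparisons with the library left out. Since a missing library unbalances the numbers, these medians carry the difference between numbers. They cannot tell how stable a difference between siRNAs or phases is. At 48 h it was -0.52 without siC number 1 and -0.43 without siTdg number 2, against 0.94 without siC number 2 and 0.87 without siTdg number 1. For the difference between times it ranged from -0.83 (without siC number 2 of 48 h) to 0.62 (without siC number 1 of 48 h), at 96 h from -0.26 to 0.46 and in EBs from -1.33 to 0.85. In siC phases it ranged from -0.89 (without G2M number 1) to 0.23 (without G2M number 2), in siTdg phases from -0.44 to 0.11, and between siRNAs from -0.26 to 0.57 in G1 and from -0.31 to 0.97 in G2M. Of 849 values of single members under alternatives, 811 stayed within 1 SD of the replicates and on their side of the threshold, which with this spread can include a change of sign, 29 moved by more and 9 passed the threshold. Depth limits Snhg9 most among the members.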
